A study of Homo sapiens with 32 samples.

Results

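MCF10A is an established cell line of human breast epithelium that is not transformed and has basal features. Wild-type (WT) MCF10A cells collected 5 days after a dose of 10 Gy of ionising radiation, with the vehicle DMSO, were compared across all genes with WT MCF10A cells left untreated. Each group had 2 libraries of poly(A)-selected RNA, so that the comparison used 4 of the 32 libraries and 2 of the 16 groups of the series, taken by their labels. Cells of both groups grew in medium with horse serum, EGF, hydrocortisone, cholera toxin and insulin. The labels name DMSO for the irradiated cells alone, so dose and vehicle cannot be told apart, and they do not say how long the untreated cells were kept. The series asks how inflammatory signalling arises after irradiation; all programs are described here, the interferon response being only one of them.

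Double-strand breaks activate p53, which raises the cyclin-dependent kinase inhibitor p21 and stops the cell cycle. Cells that reach mitosis with unrepaired breaks can form micronuclei, and DNA in the cytosol is sensed by cGAS, which through STING and IRF3 induces interferons and interferon-stimulated genes. Arrested epithelial cells can stay metabolically active for days, and keratinocyte-like cells can enter terminal differentiation.

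The 2 irradiated libraries held 14674420 and 16273391 counts and the 2 untreated libraries held 12798186 and 9455027. Replicates were far from identical. Set against each other, the 2 libraries gave a mean chi-square of 32.7 in irradiated and 35.0 in untreated cells for genes with enough counts, where counting error alone would give about 1. FN1, which encodes fibronectin, had 155 and 3595 CPM (counts scaled to library size) in irradiated replicates 1 and 2 and 39.4 and 1263 CPM in untreated replicates 1 and 2. DCN (decorin) had 37.6 and 283 CPM in irradiated cells and 25.1 and 261 CPM in untreated cells. For both genes the second library of each group was the higher, and the groups overlapped. The labels do not state whether libraries of a group are separate cultures, and the spread behind each p-value may therefore be technical. The libraries are of bulk RNA, in which fewer cells of a type and less RNA per cell cannot be told apart.

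The labelled cell type was read from marker lists. All 15 basal mammary epithelial markers listed were tested, and their summed level was 28600 and 27372 CPM in irradiated and 17918 and 14430 CPM in untreated cells. KRT5 (chr12:52908359-52914471 on hg19), the basal keratin, was among the most abundant transcripts per length, with 3967 and 3536 FPKM (fragments scaled by transcript length and library size) in irradiated and 2147 and 1731 FPKM in untreated cells. Of 20 immune and blood markers, 15 were too low to test. The leukocyte gene PTPRC had 0.211 and 0.186 CPM in irradiated and 0.075 and 0 CPM in untreated cells, and CD3D, HBB and TYROBP were at 0 in all 4 libraries. The list's sum of 146 and 114 CPM in irradiated and 115 and 127 CPM in untreated cells lay mostly in CD14 and CD68. COL3A1 and THY1, markers of fibroblasts, and CLDN5, a marker of endothelium, were at or near 0 in all 4 libraries. The summed fibroblast and endothelial level of 108 and 373 CPM in irradiated and 40.6 and 286 CPM in untreated cells followed DCN. Of the 5 tested members of each of the immune, fibroblast and retinal pigment epithelium lists, 1 rose (ITGAM, COL1A1 and MITF).

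After a filter on low counts, 15140 of 60332 genes were tested with edgeR's quasi-likelihood test, in a fit that also held the 2 libraries each of cells collected 3 days after irradiation and of cells irradiated with a CDK1 inhibitor. The verbs rise and fall are used for genes whose adjusted p was below 0.05, which are termed called. At this threshold 1084 genes rose in irradiated cells, 7.16% of those tested, and 875 fell, 5.78%, so that 12.9% were called in either direction. Both irradiated libraries lay above both untreated libraries for 32% of the genes tested and below both for 31.6%. The median log2 fold change over all tested genes was 0.000329, which serves as the background for the list medians below. Each of the 4 libraries was also left out in turn, which leaves 1 library in a group and fewer residual degrees of freedom. Far fewer genes were called in each of these fits, whichever library was left out. A call lost in such a fit, as counted below, therefore does not by itself show dependence on that library. Of the 1084 and 875 called genes, 1082 or more and 874 or more kept their direction in each of these 4 fits. Since the genes were called on these same libraries, this was nearly fixed in advance and is not a separate test. Values after ± are standard errors of a log2 fold change.

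**Figure D1:**
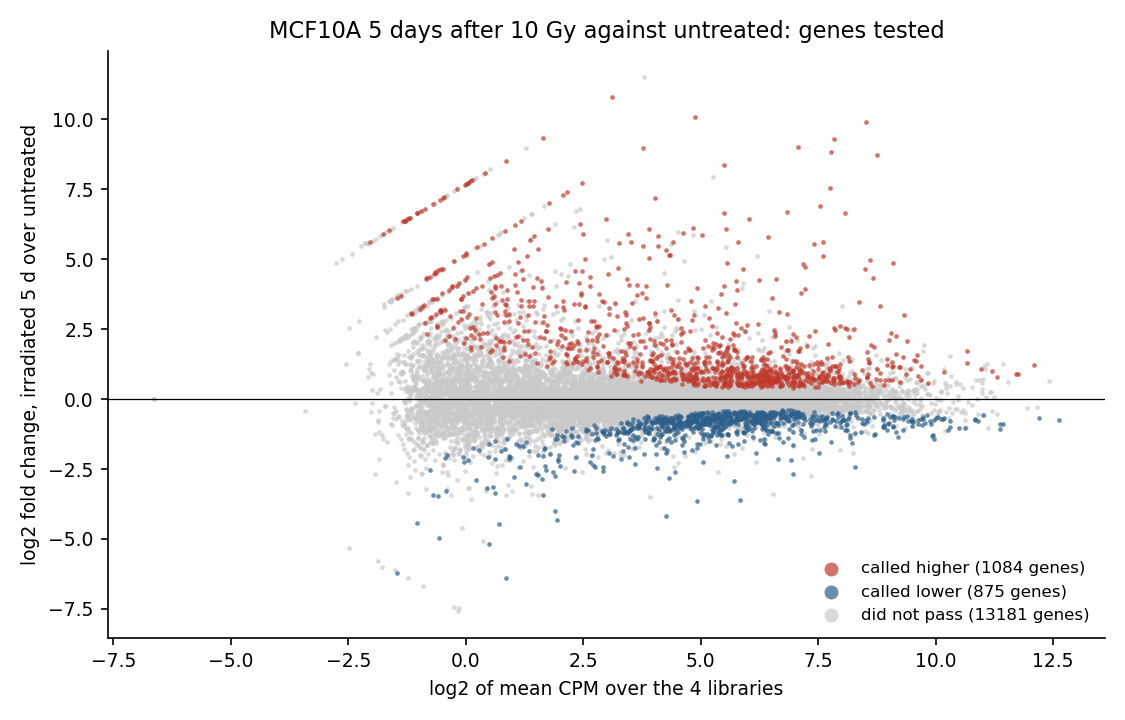
Log2 fold change of irradiated over untreated cells (vertical) against the log2 of mean CPM over the 4 libraries (horizontal) for the 15140 genes tested, with 1084 called higher in red and 875 called lower in blue. The straight diagonal rows at the upper left are genes with 0 to a few counts in untreated cells, whose fitted fold changes depend on the prior count.

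**Figure D2:**
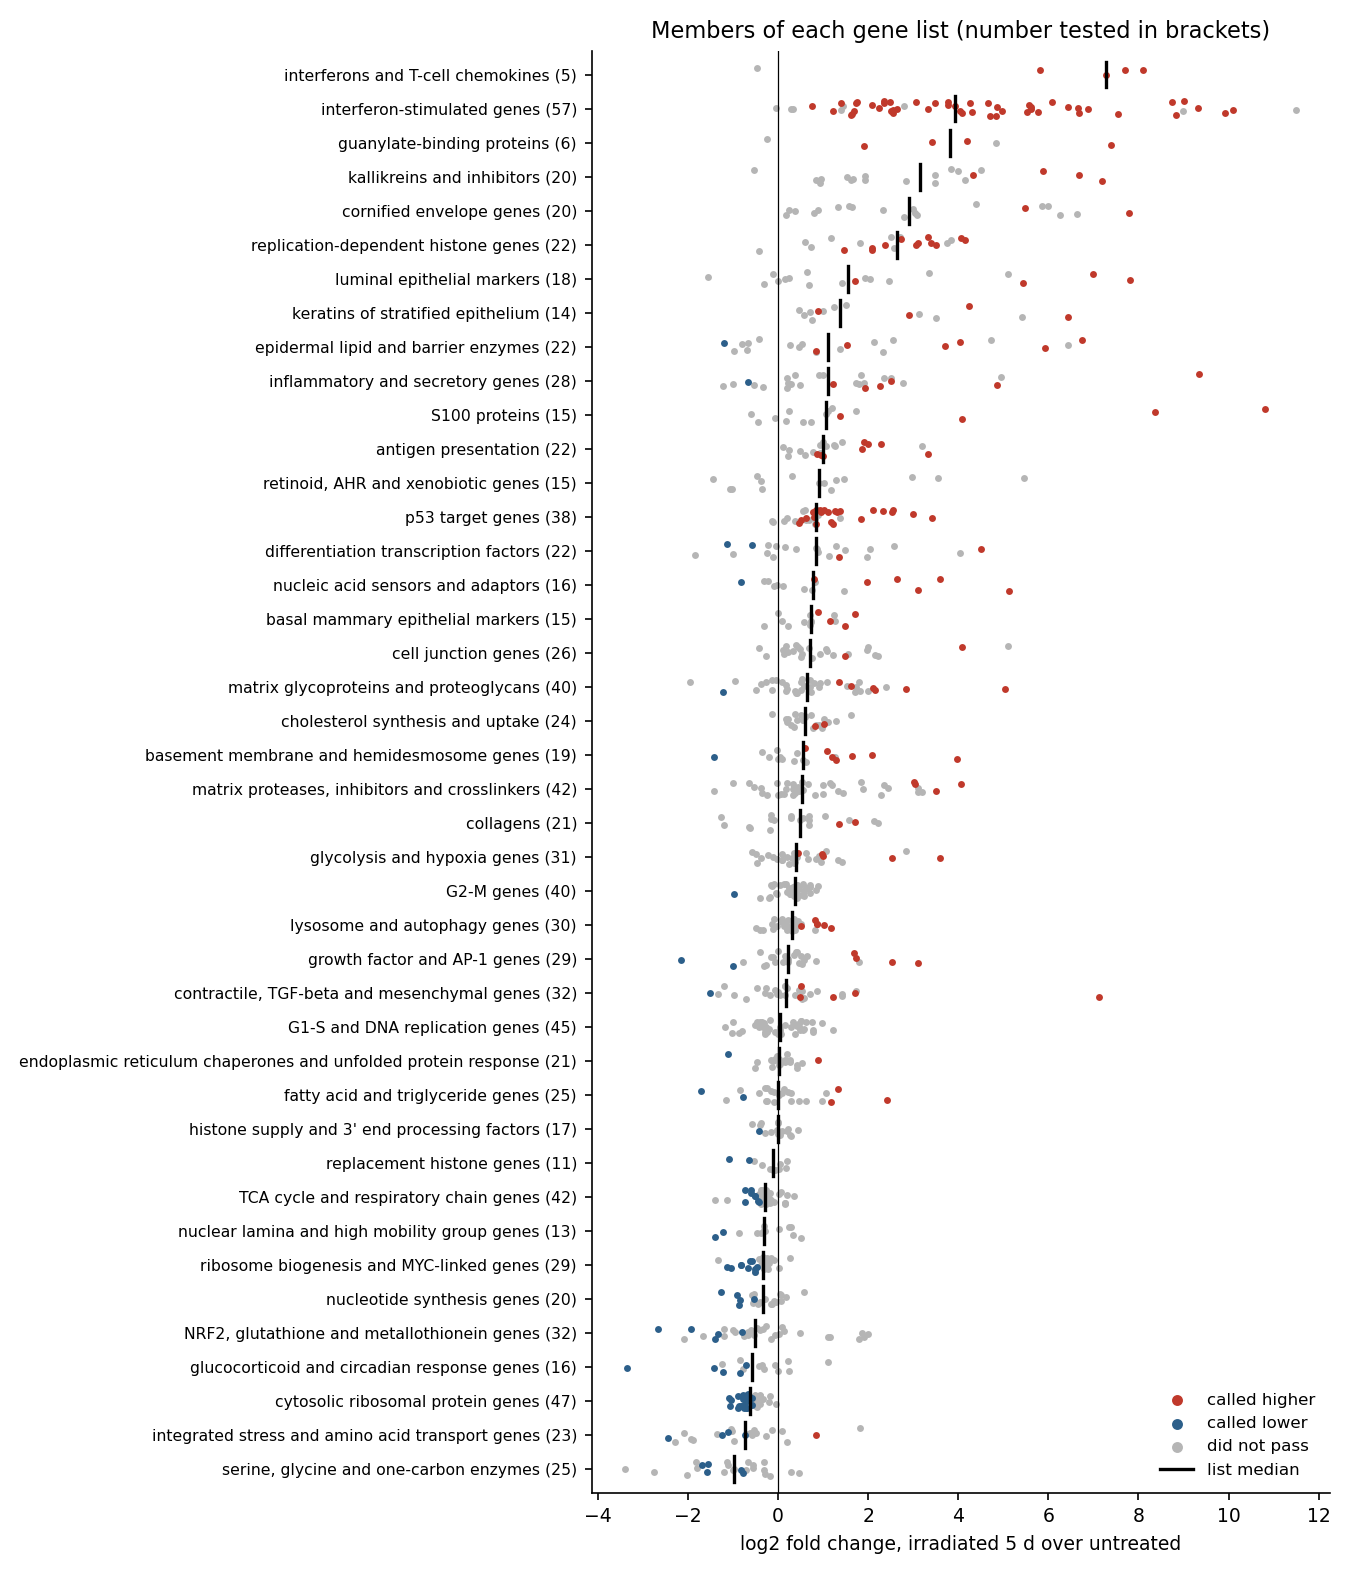
Log2 fold change of every tested member of 42 gene lists, 1 point a gene, coloured by call, with the list median as a black bar and lists ordered by median. Interferon, cornified envelope and replication-dependent histone lists lie to the right of 0, and amino acid, ribosomal protein and glucocorticoid lists lie to the left.

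Target genes of p53 were higher 5 days after irradiation. Of 38 p53 target genes tested, 23 rose and 0 fell, with a list median log2 fold change of 0.85. CDKN1A (chr6:36644237-36655116), which encodes p21, had 1270 and 1015 CPM in irradiated and 166 and 119 CPM in untreated cells, which is 3.00 ± 0.25 on the log2 scale (edgeR adjusted p = 0.0104). MDM2, the ubiquitin ligase that limits p53, had 878 and 804 CPM in irradiated and 220 and 172 CPM in untreated cells (2.10 ± 0.19, edgeR adjusted p = 0.0104). TP53INP1, a pro-apoptotic p53 cofactor, had 102 and 94.3 CPM in irradiated and 17.3 and 16.8 CPM in untreated cells (2.53 ± 0.12, edgeR adjusted p = 0.00126). The replicates of these 3 genes lay close together within each group and the groups were well apart. ACER2, an alkaline ceramidase, had 9.55 and 8.56 CPM in irradiated and 1.2 and 0.419 CPM in untreated cells (3.41 ± 0.44, edgeR adjusted p = 0.013).

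Other members that rose act in apoptosis (BAX, FAS, TNFRSF10B, TRIAP1, AEN), in repair and nucleotide supply (POLH, RRM2B), in redox balance and growth control (SESN1, TIGAR, FDXR, BTG2, PLK2, PLK3) and in p53 feedback (ZMAT3). TRIM22, which is also induced by interferon, had 618 and 298 CPM in irradiated and 86.9 and 68.2 CPM in untreated cells (2.56 ± 0.43, edgeR adjusted p = 0.0203). Not all targets moved. CCNG1 had 219 and 175 CPM in irradiated and 183 and 245 CPM in untreated cells, which overlap (-0.12 ± 0.19, edgeR adjusted p = 0.699), and NOTCH1 had 377 and 302 CPM against 292 and 146 CPM (0.63 ± 0.33, edgeR adjusted p = 0.225). Of the 23 calls, 2 were kept without irradiated replicate 1, 11 without irradiated replicate 2, 10 without untreated replicate 1 and 9 without untreated replicate 2. CDKN1A and TP53INP1 were called in all 4 of these fits, MDM2 and ACER2 in 3.

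**Figure D3:**
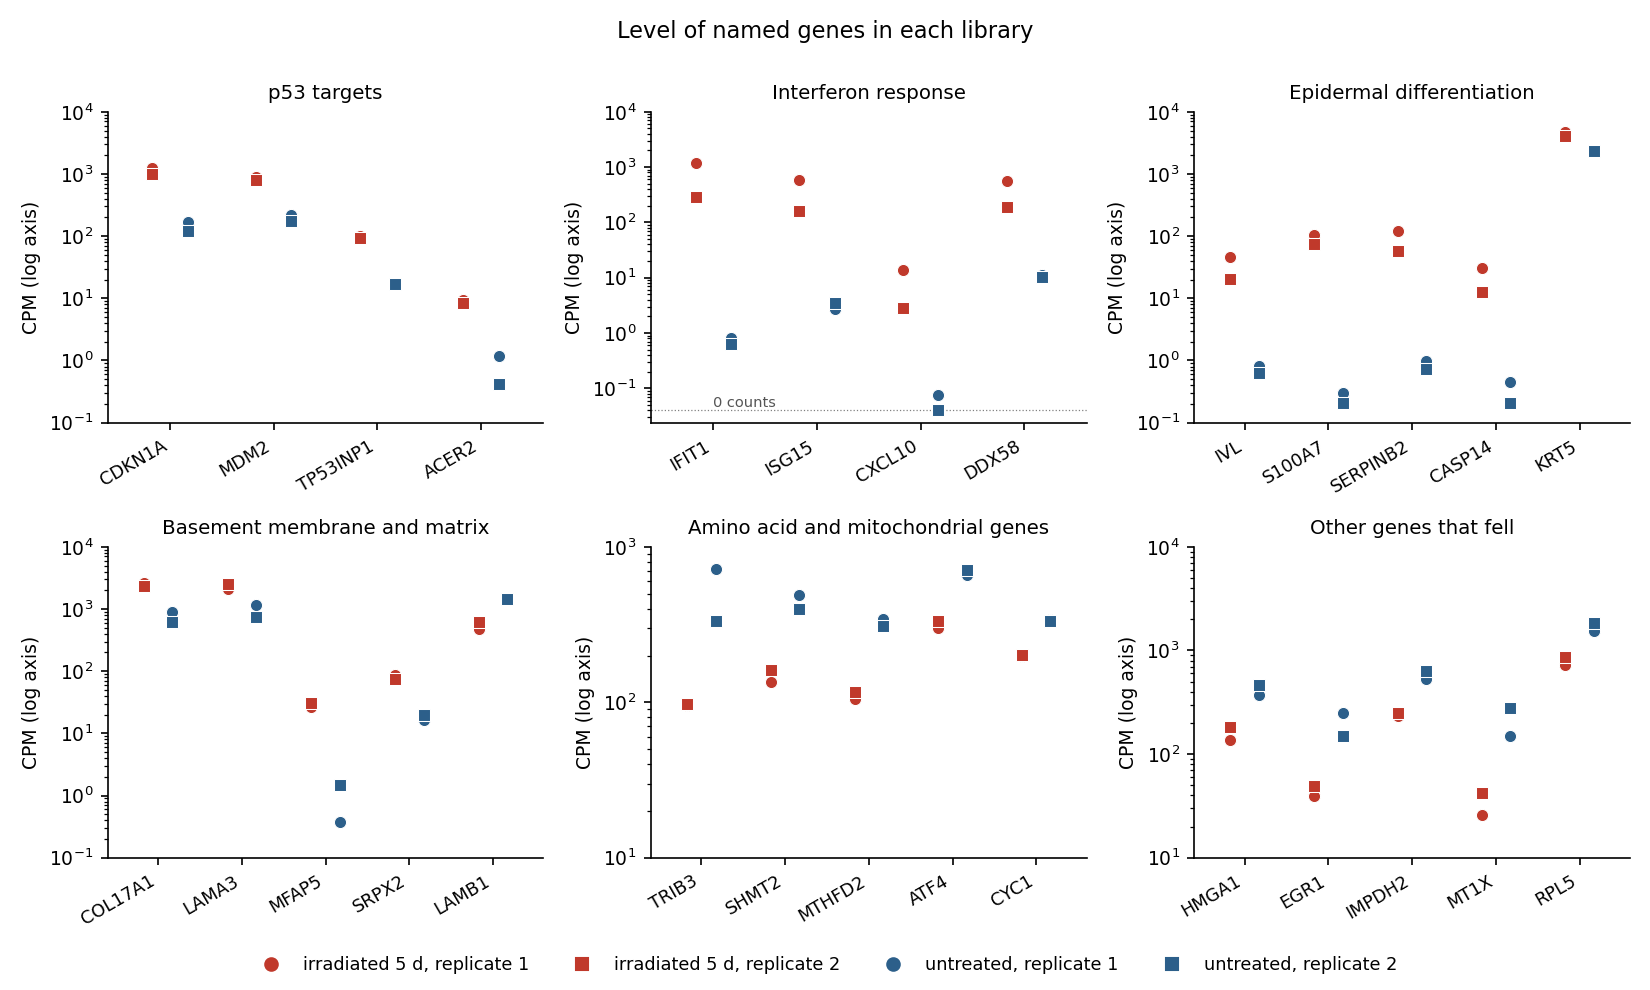
CPM of named genes on a log axis in each of the 4 libraries, with irradiated libraries in red left of untreated libraries in blue, circles for replicate 1, squares for replicate 2 and 1 panel for each group of genes. CDKN1A lies at 1270 and 1015 CPM in irradiated against 166 and 119 CPM in untreated cells, while IFIT1 and ISG15 differ several-fold between the 2 irradiated libraries too.

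The lists of the interferons and chemokines, of the interferon-stimulated genes and of the guanylate-binding proteins had the highest medians of the 45 lists. This order is only a description. All 5 tested genes of the first list and 3 of 6 guanylate-binding proteins were below the level of the low-count filter in an untreated library. Fewer of the interferon-stimulated genes were, 8 of 57. Of 57 interferon-stimulated genes tested, 49 rose and 0 fell, with a median log2 fold change of 3.92, and in 54 of them both irradiated libraries lay above both untreated ones (32% of all tested genes did). The mean log2 CPM of the list was 8.16 and 6.71 in irradiated replicates 1 and 2 and 3.53 and 3.48 in untreated cells. The first irradiated library was thus the higher by more than 1 log2 unit, while the untreated libraries hardly differed. IFIT1, which binds viral RNA ends, had 1163 and 292 CPM in irradiated and 0.825 and 0.629 CPM in untreated cells (9.92 ± 1.51, edgeR adjusted p = 0.0181). ISG15, a ubiquitin-like protein, had 579 and 158 CPM in irradiated and 2.7 and 3.56 CPM in untreated cells (6.89 ± 1.00, edgeR adjusted p = 0.0169). IFI27 had 716 and 194 CPM in irradiated and 0.525 and 0.943 CPM in untreated cells (9.31 ± 1.57, edgeR adjusted p = 0.0218). Per length it reached 3192 and 777 FPKM in irradiated cells, the first of these near the level of KRT5. MX2, a dynamin-like antiviral protein, had 1412 and 287 counts in irradiated and 1 and 0 counts in untreated cells. This is a ratio of 1280 with a 95% counting interval of 230 to 50605 (exact, counting error only; edgeR adjusted p = 0.0187).

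Not every member of the list moved. IFITM3 had 926 and 700 CPM in irradiated and 474 and 813 CPM in untreated cells (0.34 ± 0.31, edgeR adjusted p = 0.498) and IFITM2 had 527 and 349 CPM against 300 and 608 CPM (-0.05 ± 0.39, edgeR adjusted p = 0.944). These 2 genes are near-identical copies between which counting could split reads. TRIM25, a ubiquitin ligase of RNA sensing, had 425 and 275 CPM in irradiated and 287 and 283 CPM in untreated cells (0.30 ± 0.22, edgeR adjusted p = 0.39). Of the 49 calls, 6, 41, 6 and 4 were kept without irradiated replicate 1, irradiated replicate 2, untreated replicate 1 and untreated replicate 2, and the list median ran from 3.06 to 4.46 over those fits.

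Interferon-stimulated promoters carry the interferon-stimulated response element (ISRE), whose core is GAAA, 2 free bases and GAAA on either strand. RefSeq promoter windows (GRCh38.p14, 250 bases before to 50 after the start) were at hand for 40 of the 49 members that rose. The core was found in the windows of 26 of these 40 genes (65%) and in 54.4% of their 57 windows, against 3.57% of all 35116 windows. Of all 1084 genes that rose, only 836 had a window, so no share is given. The stretches below, all upstream of the start and on the strand of the gene, show the core in capitals for 5 of these members and for CXCL10, a chemokine gene described below. They lie at chr1:1013364-1013419 (ISG15), chr10:89392487-89392549 (IFIT1), chr14:94110608-94110670 (IFI27), chr1:27672256-27672368 (IFI6), chr19:17405725-17405780 (BST2) and chr4:76023689-76023738 (CXCL10).
ISG15: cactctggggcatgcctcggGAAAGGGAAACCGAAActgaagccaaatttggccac
IFIT1: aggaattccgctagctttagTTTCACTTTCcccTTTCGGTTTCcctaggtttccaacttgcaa
IFI27: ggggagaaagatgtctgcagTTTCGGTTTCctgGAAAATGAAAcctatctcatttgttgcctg
IFI6: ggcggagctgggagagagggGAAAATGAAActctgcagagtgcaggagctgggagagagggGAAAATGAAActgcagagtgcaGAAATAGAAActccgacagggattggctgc
BST2: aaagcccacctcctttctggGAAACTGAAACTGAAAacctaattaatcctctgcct
CXCL10: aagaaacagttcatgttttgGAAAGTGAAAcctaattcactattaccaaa
In ISG15 and BST2 the matches overlap, and in IFIT1 both matches are on the opposite strand. A match is a description of these letters and not evidence of binding.

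Interferons themselves were low. The interferon beta gene IFNB1 had 14 and 4 counts in irradiated and 0 counts in both untreated libraries, at least 4.52-fold higher when the untreated group is set at 3 counts in all (the bound used throughout), and was too low to test. IFNL1, a type III interferon, had 63 and 14 counts in irradiated and 0 counts in untreated cells, at least 19.3-fold higher (edgeR adjusted p = 0.0499). CXCL10, a T-cell chemokine, had 196 and 46 counts in irradiated and 1 and 0 in untreated cells, a ratio of 182 with a 95% counting interval of 32.4 to 7233 (exact; edgeR adjusted p = 0.03). CXCL11 had 236 and 91 counts in irradiated and 1 and 0 in untreated cells (ratio 246, interval 43.9 to 9763; edgeR adjusted p = 0.0264). CCL5 had 118 and 40 counts in irradiated and 2 and 0 in untreated cells (ratio 59.5, interval 16.2 to 496; edgeR adjusted p = 0.0241). For these chemokines, as for the interferon-stimulated genes, the first irradiated library held the more counts. Of the 5 members tested of this list of 9, 4 rose, and the median log2 fold change was 7.29, or 5.82 with IFNL1 at its bound. All 5 were below the level of the low-count filter in an untreated library, so they were tested because of libraries in which they were higher, and the count and median are only a description. No more than 2 of the 4 calls were kept when any 1 of the 4 libraries was left out.

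Sensors and effectors of the same response rose in part. Of 16 nucleic acid sensors and adaptors tested, 6 rose and 1 fell. DDX58 (chr9:32455703-32526322), which encodes the RNA sensor RIG-I, had 563 and 193 CPM in irradiated and 11.4 and 10.2 CPM in untreated cells (5.13 ± 0.81, edgeR adjusted p = 0.019). SAMHD1, a dNTP hydrolase, had 252 and 113 CPM in irradiated and 20.5 and 21.7 CPM in untreated cells (3.11 ± 0.39, edgeR adjusted p = 0.014). IFIH1 (MDA5), DHX58, IFI16 and TLR3 also rose. MB21D1, which encodes cGAS, had 17.6 and 15.8 CPM in irradiated and 20.3 and 15.1 CPM in untreated cells, which overlap (-0.09 ± 0.20, edgeR adjusted p = 0.796). TMEM173, which encodes STING, had 85.3 and 55.5 CPM in irradiated and 34.2 and 49.7 CPM in untreated cells (0.75 ± 0.24, edgeR adjusted p = 0.0842). RNASEH2B, a subunit of the ribonuclease that removes RNA from DNA, fell to 15.6 and 18.2 CPM in irradiated cells, against 31.0 and 28.3 CPM in untreated cells (-0.81 ± 0.21, edgeR adjusted p = 0.0459).

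Of 22 antigen presentation genes 8 rose and 0 fell, with a median log2 fold change of 0.99. They were CD74, HLA-C, HLA-F, NLRC5, PSMB8, PSME2, TAP1 and TAP2. TAP1, a subunit of the peptide transporter, had 343 and 143 CPM in irradiated and 65.9 and 63.4 CPM in untreated cells (1.91 ± 0.37, edgeR adjusted p = 0.0269). NLRC5, the activator of class I genes, had 89.5 and 33.9 CPM in irradiated and 14.3 and 16.7 CPM in untreated cells (1.99 ± 0.44, edgeR adjusted p = 0.0342). B2M, the light chain of class I molecules, had 1493 and 876 CPM in irradiated and 420 and 820 CPM in untreated cells, without overlap but without passing (0.94 ± 0.36, edgeR adjusted p = 0.122). Of 6 guanylate-binding proteins 4 rose (GBP1, GBP3, GBP5, GBP6). Of the 6, 3 were below the level of the low-count filter in an untreated library, 2 of the 4 that rose among them. GBP1 had 130 and 62.8 CPM in irradiated and 8.02 and 10.2 CPM in untreated cells (3.41 ± 0.52, edgeR adjusted p = 0.0184). Both lists lost all of their calls without irradiated replicate 1, without untreated replicate 1 and without untreated replicate 2; without irradiated replicate 2, antigen presentation kept 6 of 8 and the guanylate-binding proteins 3 of 4.

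Inflammatory and secretory genes gave fewer calls. Of 28 tested, 6 rose (C3, CFB, IL36G, LCN2, SAA1, SAA2) and 1 fell. LCN2, the siderophore-binding lipocalin, had 130 and 52.5 CPM in irradiated and 3.0 and 3.35 CPM in untreated cells (4.85 ± 0.97, edgeR adjusted p = 0.0294). SAA1, an acute phase protein whose reads cannot be cleanly told from those of its near copy SAA2, had 1099 and 783 CPM in irradiated and 148 and 242 CPM in untreated cells (2.27 ± 0.51, edgeR adjusted p = 0.0387). IL36G, an epithelial cytokine of the interleukin 1 family, had 99 and 90 counts in irradiated and 0 in untreated cells, at least 47.5-fold higher (edgeR adjusted p = 0.0435).

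Several cytokines often linked with senescent cells did not pass. IL6 had 0.492 and 1.12 CPM in irradiated and 0.075 and 1.26 CPM in untreated cells (0.38 ± 1.44, edgeR adjusted p = 0.88). CXCL8 had 93.5 and 161 CPM in irradiated and 11 and 60.4 CPM in untreated cells (1.84 ± 1.14, edgeR adjusted p = 0.307), and IL1A had 248 and 315 CPM against 274 and 184 CPM (0.30 ± 0.28, edgeR adjusted p = 0.51). NFKBIA, the inhibitor of NF-kB and itself one of its targets, fell to 150 and 163 CPM in irradiated cells, against 209 and 291 CPM in untreated cells (-0.67 ± 0.17, edgeR adjusted p = 0.0444). Of the 6 genes that rose, 0, 1, 1 and 1 kept the call without irradiated replicate 1, irradiated replicate 2, untreated replicate 1 and untreated replicate 2.

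Cell cycle genes showed no call of higher expression, and the untreated libraries lay far apart from each other. The mean log2 CPM of 40 G2-M genes was 4.09 and 4.6 in irradiated and 3.04 and 4.68 in untreated replicates 1 and 2. Of these genes 0 rose and 1 fell, and the median log2 fold change of 0.37 became -0.26 without untreated replicate 1 and 1.43 without untreated replicate 2. MKI67, a proliferation marker, had 69.8 and 114 CPM in irradiated and 24.2 and 72.4 CPM in untreated cells (0.93 ± 0.64, edgeR adjusted p = 0.354). CCNB1, the mitotic cyclin, had 34.5 and 47.8 CPM in irradiated and 17.5 and 56.3 CPM in untreated cells (0.17 ± 0.59, edgeR adjusted p = 0.871). The one gene that fell was CDC25B, a phosphatase that activates CDK1, with 389 and 345 CPM in irradiated and 779 and 661 CPM in untreated cells (-0.97 ± 0.22, edgeR adjusted p = 0.0364). Of 45 G1-S and DNA replication genes 0 rose and 0 fell in the edgeR test, with a median of 0.05, and their mean log2 CPM was 3.91 and 4.30 in irradiated and 3.31 and 4.58 in untreated cells. In both lists the untreated libraries thus differed from each other by more than 1 log2 unit, and the part of this difference in the other results was not tested.

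Nuclear architecture genes gave 2 calls among 13. HMGA1, an architectural chromatin protein, fell to 137 and 182 CPM in irradiated cells, against 374 and 468 CPM in untreated cells (-1.40 ± 0.21, edgeR adjusted p = 0.0164). LBR, the lamin B receptor of the inner nuclear membrane, fell to 53.5 and 62.6 CPM in irradiated cells, against 128 and 142 CPM in untreated cells (-1.22 ± 0.19, edgeR adjusted p = 0.0167). LMNB1, whose loss is a textbook sign of senescence, had 12.1 and 17.5 CPM in irradiated and 8.7 and 32.6 CPM in untreated cells. The irradiated values fell between the untreated ones (-0.47 ± 0.64, edgeR adjusted p = 0.656). HMGB2 also overlapped between the groups, with 28.1 and 38.1 CPM in irradiated and 30.8 and 91.2 CPM in untreated cells (-0.88 ± 0.58, edgeR adjusted p = 0.34).

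Histone transcripts split by class. Replication-dependent histone mRNAs normally end in a stem-loop without a poly(A) tail, so poly(A)-selected libraries hold only their polyadenylated forms. Of 66 such genes listed, 22 were expressed enough to test; 12 of these rose and 0 fell, with a median log2 fold change of 2.64. In untreated cells 30 of the 66 were at 0, and 14 of the 22 tested were below the level of the low-count filter in an untreated library. Such genes enter the test through libraries in which they are higher, which tilts the count and the median upward; of the 8 at or above that level in both untreated libraries, 5 rose. The mean log2 CPM of the 22 was 2.67 and 1.92 in irradiated and -0.04 and 0.40 in untreated cells. HIST1H4H (chr6:26277837-26285866) had 13.2 and 6.7 CPM in irradiated and 0.225 and 0.943 CPM in untreated cells (4.15 ± 0.72, edgeR adjusted p = 0.0199). HIST2H2BE had 39.0 and 19.2 CPM in irradiated and 3.07 and 3.88 CPM in untreated cells (3.07 ± 0.45, edgeR adjusted p = 0.0167), and the linker histone gene HIST1H1C had 32.4 and 19.2 CPM against 4.12 and 8.07 CPM (2.09 ± 0.40, edgeR adjusted p = 0.0247). HIST1H3H had 5.34 and 3.91 CPM in irradiated and 0.3 and 0.524 CPM in untreated cells (3.50 ± 0.48, edgeR adjusted p = 0.0155).

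Both irradiated libraries lay above both untreated ones for 20 of the 22 genes (32% of all tested genes), with the same reservation. HIST3H2A was the exception with lower irradiated values, at 19.3 and 16.5 CPM in irradiated and 20.1 and 28.2 CPM in untreated cells (-0.43 ± 0.23, edgeR adjusted p = 0.239). The 12 calls were of H1, H2A, H2B, H3 and H4 genes, most of them in the large cluster on chromosome 6; genes of this family are near-identical copies, and reads could be split between them. Of the 12, 0 calls were kept without irradiated replicate 1, 6 without irradiated replicate 2, and 0 without either untreated library.

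**Figure D4:**
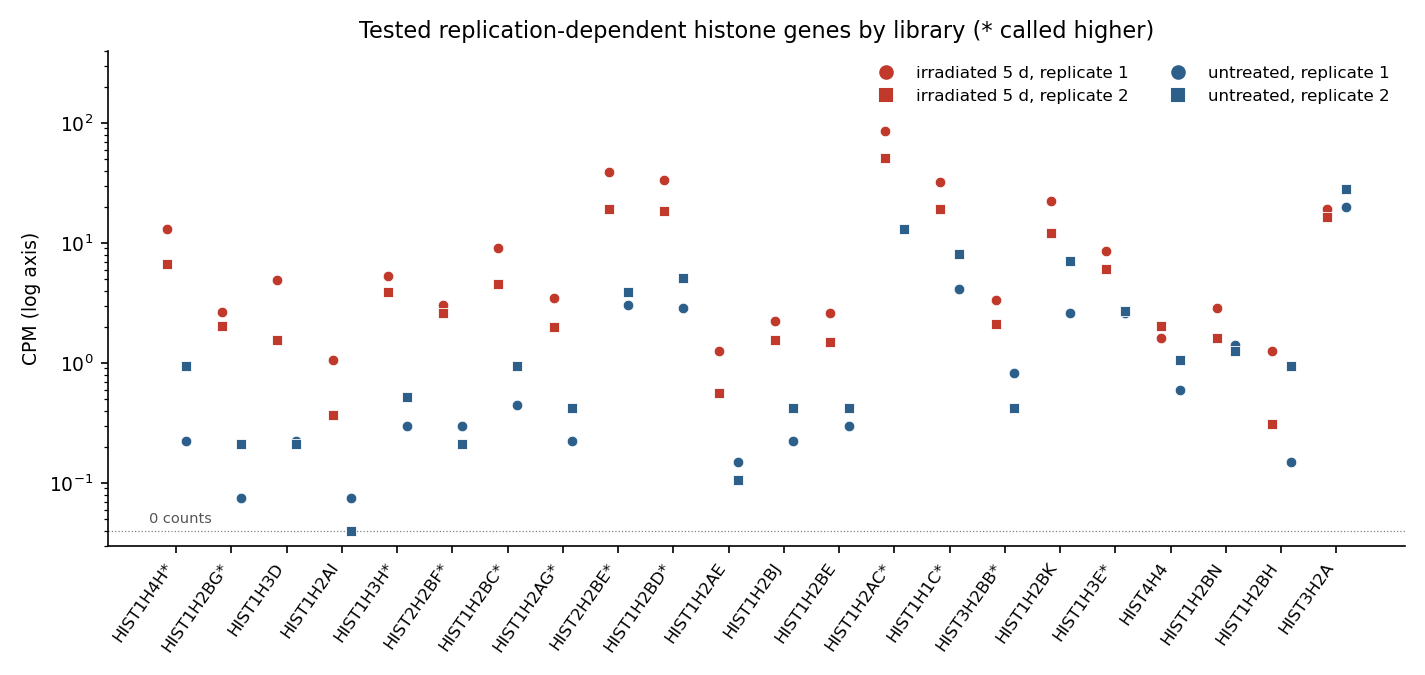
CPM on a log axis of the 22 tested replication-dependent histone genes, irradiated libraries in red left of untreated libraries in blue, ordered by fold change, with called genes starred. The 12 called genes and all others except HIST3H2A and HIST1H2BH have both irradiated values above both untreated values.

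Replacement histones, which are made throughout the cell cycle from polyadenylated mRNA, did not share this direction. Of 11 tested, 0 rose and 2 fell, with a median log2 fold change of -0.11. H1FX fell to 28.7 and 27.5 CPM in irradiated cells, against 59.6 and 59.3 CPM in untreated cells (-1.08 ± 0.18, edgeR adjusted p = 0.0193), and H2AFY2, which encodes a macroH2A, fell to 18.5 and 18.8 CPM, against 31.3 and 27.1 CPM (-0.65 ± 0.15, edgeR adjusted p = 0.0344). H3F3B had 326 and 298 CPM in irradiated and 331 and 320 CPM in untreated cells (-0.06 ± 0.11, edgeR adjusted p = 0.733). Of 17 factors of histone supply and 3' end processing, 0 rose and 1 fell, a share near that of all tested genes (5.78% fell). This was CPSF3, the endonuclease of mRNA 3' ends. CPSF3 fell to 51.3 and 52.1 CPM in irradiated cells, against 66.7 and 71.8 CPM in untreated cells (-0.42 ± 0.11, edgeR adjusted p = 0.0472). SLBP, the stem-loop binding protein, had 36 and 38.2 CPM in irradiated and 40.9 and 50 CPM in untreated cells (-0.29 ± 0.16, edgeR adjusted p = 0.24).

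Few genes of terminal epidermal differentiation passed the test. Of 20 cornified envelope genes tested, 18 had both irradiated libraries above both untreated ones (32% of all tested genes did), with a list median log2 fold change of 2.90 and a mean log2 CPM of 4.55 and 3.73 in irradiated and 1.79 and 1.27 in untreated cells. Only 2 of the 20 rose at the threshold, a share near that of all tested genes (7.16%). Of the 20, 11 were below the level of the low-count filter in an untreated library, both called genes among them, so the 18 and the median are tilted upward by the choice of genes tested. IVL (chr1:152881021-152884362), which encodes involucrin, had 46.9 and 20.1 CPM in irradiated and 0.825 and 0.629 CPM in untreated cells (5.49 ± 1.00, edgeR adjusted p = 0.0247). FLG, which encodes filaggrin, had 33 and 31 counts in irradiated and 0 in untreated cells, at least 16.1-fold higher (edgeR adjusted p = 0.0483). CSTA, a cystatin of the envelope, had 447 and 300 CPM in irradiated and 112 and 127 CPM in untreated cells and missed the threshold (1.64 ± 0.45, edgeR adjusted p = 0.0595). TGM1, the cross-linking transglutaminase, had 486 and 313 CPM against 290 and 170 CPM (0.80 ± 0.95, edgeR adjusted p = 0.604).

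Some calcium-binding S100 proteins and protease inhibitors of the epidermis rose as well. S100A7 (chr1:153430220-153433177), psoriasin, had 105 and 74.0 CPM in irradiated and 0.3 and 0.21 CPM in untreated cells (8.37 ± 1.10, edgeR adjusted p = 0.016). S100A7A had 324 and 190 counts in irradiated and 0 in untreated cells, at least 129-fold higher (edgeR adjusted p = 0.0118); it is a near copy of S100A7. S100A10 had 1286 and 921 CPM in irradiated and 399 and 452 CPM in untreated cells (1.37 ± 0.28, edgeR adjusted p = 0.0276). S100A9, in contrast, had 2596 and 3188 CPM in irradiated and 568 and 1960 CPM in untreated cells and did not pass (1.19 ± 0.92, edgeR adjusted p = 0.409). Of 15 tested, 4 rose and 0 fell. Of these 15, 3 were below the level of the low-count filter in an untreated library, and all 3 rose. Of the 12 at or above that level in both untreated libraries, 1 rose.

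Among 20 kallikreins and inhibitors, 4 rose and 0 fell, with a median log2 fold change of 3.16. Of the 20, 6 were below the level of the low-count filter in an untreated library, 1 called gene among them. The median is tilted upward by this choice of genes tested. SERPINB7 had 78.0 and 49.9 CPM in irradiated and 1.27 and 0.838 CPM in untreated cells (5.87 ± 0.67, edgeR adjusted p = 0.0129). SERPINB2, plasminogen activator inhibitor 2, had 122 and 56.9 CPM in irradiated and 0.975 and 0.733 CPM in untreated cells (6.67 ± 1.42, edgeR adjusted p = 0.0334), and PI3, the elastase inhibitor elafin, had 959 and 584 CPM against 55.9 and 20.2 CPM (4.33 ± 0.91, edgeR adjusted p = 0.0329). Of 22 epidermal lipid and barrier enzymes, 6 rose and 1 fell. Here 9 of the 22 were below the filter level in an untreated library, 4 of the 6 that rose among them. CASP14, the caspase of cornification, had 30.3 and 12.5 CPM in irradiated and 0.45 and 0.21 CPM in untreated cells (5.92 ± 1.39, edgeR adjusted p = 0.0423), and PADI3, a peptidylarginine deiminase, was at least 7.79-fold higher, with 13 and 18 counts against 0 (edgeR adjusted p = 0.0253). BLMH, bleomycin hydrolase, fell to 17.6 and 28.9 CPM in irradiated cells, against 48.0 and 58.7 CPM in untreated cells (-1.20 ± 0.29, edgeR adjusted p = 0.0434). Over the cornified envelope, S100, kallikrein and lipid lists, 0 calls of higher expression were kept without irradiated replicate 1, and the cornified envelope calls were kept in 0 of the 4 fits that leave out a library.

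Keratins of stratified epithelium rose in 4 of 14 cases. KRT5 had 4708 and 4027 CPM in irradiated and 2375 and 2366 CPM in untreated cells (0.88 ± 0.16, edgeR adjusted p = 0.0217). KRT80, a late differentiation keratin, had 30.3 and 17.7 CPM in irradiated and 1.8 and 4.71 CPM in untreated cells (2.91 ± 0.61, edgeR adjusted p = 0.0309). KRT13, a keratin of internal stratified epithelia, had 7.94 and 3.6 CPM in irradiated and 0.45 and 0.105 CPM in untreated cells (4.23 ± 0.94, edgeR adjusted p = 0.034), and its partner KRT4 had 24.3 and 7.07 CPM against 0.3 and 0 CPM (6.44 ± 1.59, edgeR adjusted p = 0.0472). KRT10, the keratin of the upper epidermis, had 153 and 83.2 CPM in irradiated and 70.3 and 47.4 CPM in untreated cells (1.00 ± 0.75, edgeR adjusted p = 0.391), and KRT14 had 999 and 1050 CPM against 482 and 765 CPM (0.72 ± 0.37, edgeR adjusted p = 0.23). The groups did not overlap for either gene, and 11 of the 14 keratins had both irradiated libraries above both untreated ones (32% of all tested genes did). Of the 14, 4 were below the level of the low-count filter in an untreated library, 2 of the 4 that rose among them. The 11 is thus tilted upward by the choice of genes tested. All 4 keratin calls were lost when any 1 of the 4 libraries was left out.

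Of 18 luminal markers tested, 4 rose and 0 fell. Of the 18, 3 were below the level of the low-count filter in an untreated library, and all 3 rose. Of the 15 at or above that level in both untreated libraries, 1 rose (7.16% of all tested genes did). FOXA1, a luminal transcription factor, had 16.7 and 13.6 CPM in irradiated and 4.57 and 4.71 CPM in untreated cells (1.71 ± 0.29, edgeR adjusted p = 0.0192). LTF, lactoferrin, had 128 and 74 counts in irradiated and 1 and 0 in untreated cells (ratio 152, 95% counting interval 27.0 to 6042, exact; edgeR adjusted p = 0.0167). MUC4 and PIGR, the immunoglobulin transporter, also rose at under 4 CPM. KRT7 had 2724 and 2344 CPM in irradiated and 2227 and 2033 CPM in untreated cells (0.25 ± 0.16, edgeR adjusted p = 0.305), and MUC1 had 855 and 482 CPM against 264 and 241 CPM (1.41 ± 0.60, edgeR adjusted p = 0.16). Of 22 differentiation transcription factors, 2 rose (MAF and EHF) and 2 fell (CEBPD and CEBPB). These shares are near those of all tested genes (7.16% rose and 5.78% fell). MAF had 56 and 39 counts in irradiated and 2 and 1 in untreated cells, below the level of the low-count filter. Of the 20 at or above that level in both untreated libraries, 1 rose. EHF, an epithelial ETS factor, had 179 and 179 CPM in irradiated and 63.7 and 76.6 CPM in untreated cells (1.35 ± 0.32, edgeR adjusted p = 0.0416). CEBPD fell to 43.5 and 41.7 CPM in irradiated cells, against 84.7 and 103 CPM in untreated cells (-1.14 ± 0.19, edgeR adjusted p = 0.0179). Of 26 junction genes, CDH3, which encodes P-cadherin, had 981 and 885 CPM in irradiated and 365 and 300 CPM in untreated cells (1.49 ± 0.27, edgeR adjusted p = 0.0219). CGN, the tight junction protein cingulin, rose too, and 0 fell. Thus 2 of the 26 junction genes rose, a share near that of all tested genes (7.16%). Without irradiated replicate 2, 3 of the 4 luminal calls were kept, and 0 in each of the other 3 fits.

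**Figure D5:**
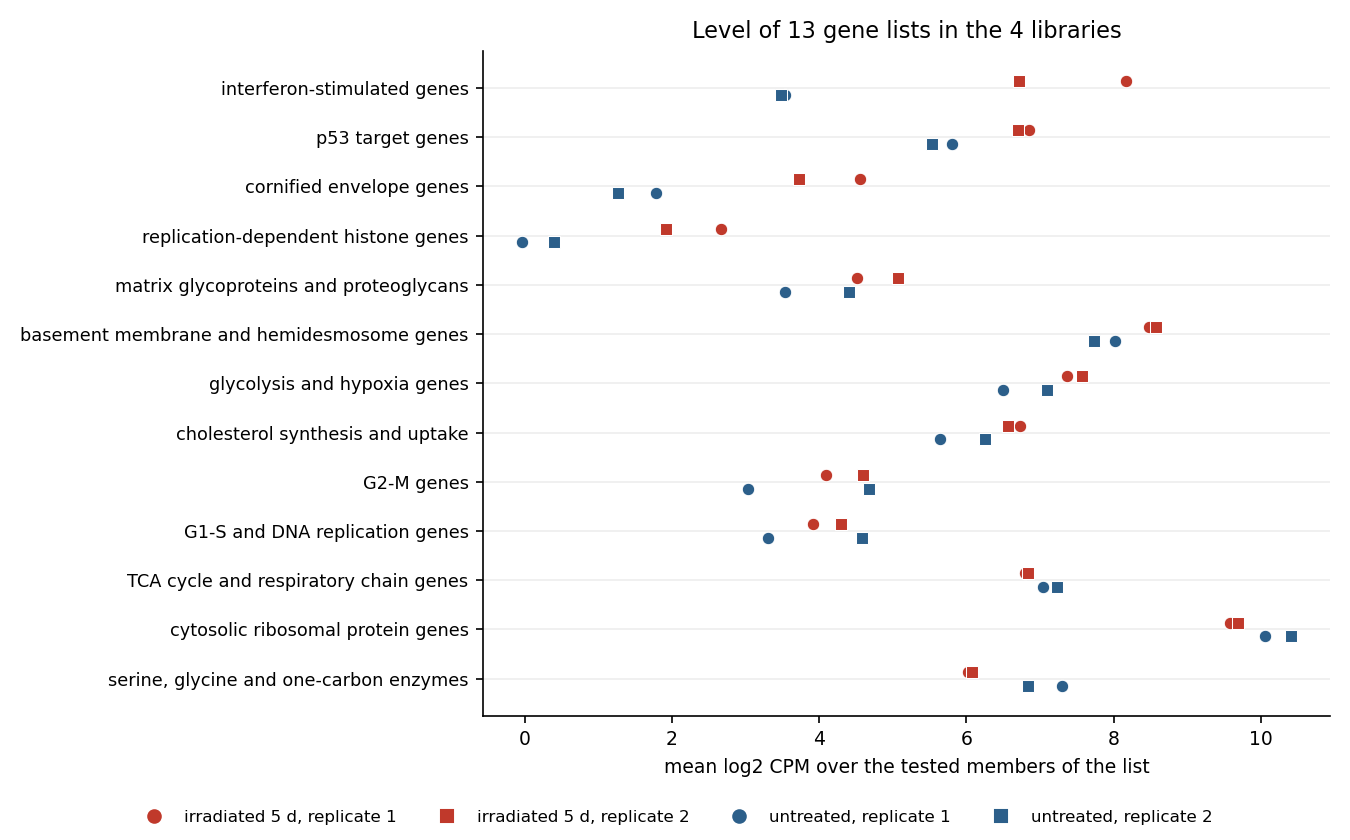
Mean log2 CPM over the tested members of 13 gene lists (horizontal) in each library, irradiated in red drawn above untreated in blue, circles for replicate 1 and squares for replicate 2. Interferon-stimulated genes reach 8.16 and 6.71 in irradiated against 3.53 and 3.48 in untreated cells, and the G2-M list is spread from 3.04 to 4.68 over the untreated libraries.

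Most called basement membrane genes rose. Of 19 tested, 7 rose and 1 fell, with a median log2 fold change of 0.56 (7.16% of all tested genes rose and 5.78% fell). Of the 19, 2 were below the level of the low-count filter in an untreated library, NID1 among them, and both rose. Of the 17 at or above that level in both untreated libraries, 5 rose. COL17A1, the transmembrane collagen of hemidesmosomes, had 2648 and 2305 CPM in irradiated and 902 and 611 CPM in untreated cells (1.71 ± 0.20, edgeR adjusted p = 0.0118). LAMA3, the alpha chain of laminin 332, had 2108 and 2505 CPM in irradiated and 1154 and 736 CPM in untreated cells (1.29 ± 0.27, edgeR adjusted p = 0.0282). LAMB3, a beta chain of the same laminin, did not pass, with 1941 and 2475 CPM in irradiated and 2554 and 1617 CPM in untreated cells (0.08 ± 0.25, edgeR adjusted p = 0.849). NID1, a nidogen that links laminin and collagen IV networks, had 2.39 and 3.35 CPM in irradiated and 0.225 and 0.105 CPM in untreated cells (3.98 ± 0.53, edgeR adjusted p = 0.014). LAMA1, LAMA2, AGRN, DST and ITGA6 rose as well. LAMB1, a beta chain of other laminins, moved the opposite way and fell to 469 and 620 CPM in irradiated cells, against 1467 and 1460 CPM in untreated cells (-1.43 ± 0.23, edgeR adjusted p = 0.0181). Of the 7 genes that rose, 0, 3, 5 and 0 kept the call without irradiated replicate 1, irradiated replicate 2, untreated replicate 1 and untreated replicate 2.

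Among 40 matrix glycoproteins and proteoglycans 6 rose and 1 fell. MFAP5, a microfibril protein, had 26.7 and 30.9 CPM in irradiated and 0.375 and 1.47 CPM in untreated cells (5.04 ± 0.54, edgeR adjusted p = 0.0113). SRPX2, a sushi repeat protein, had 86.7 and 75.2 CPM in irradiated and 16.4 and 19.9 CPM in untreated cells (2.16 ± 0.18, edgeR adjusted p = 0.0104) and was called in all 4 fits that leave out a library. IGFBP3, which binds insulin-like growth factors, had 30.3 and 49.4 CPM in irradiated and 2.85 and 8.38 CPM in untreated cells (2.85 ± 0.71, edgeR adjusted p = 0.0487). CYR61, THBS1 and LTBP2 rose, and LTBP4, a latent TGF-beta binding protein, fell to 64.0 and 104 CPM in irradiated cells, against 197 and 198 CPM in untreated cells (-1.23 ± 0.27, edgeR adjusted p = 0.0344). FN1, whose 4 values are given above, did not pass (1.53 ± 2.30, edgeR adjusted p = 0.688), although the irradiated library was the higher within each replicate number. Of the 6 that rose, between 1 and 4 kept the call when a library was left out.

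Collagens gave few calls: of 21 tested, COL17A1 and COL1A1 rose and 0 fell (7.16% of all tested genes rose). COL1A1 was measured at a low level, with 21.1 and 23.4 CPM in irradiated and 9.6 and 7.65 CPM in untreated cells (1.36 ± 0.28, edgeR adjusted p = 0.0271). COL7A1, the anchoring fibril collagen, had 210 and 348 CPM in irradiated and 254 and 204 CPM in untreated cells (0.29 ± 0.33, edgeR adjusted p = 0.593). Of 42 matrix proteases, inhibitors and crosslinkers, 4 rose (ADAMTS1, CTSS, MMP10 and HAS3) and 0 fell. This share is near that of all tested genes (7.16% rose). Of the 42, 9 were below the level of the low-count filter in an untreated library, 2 of the 4 that rose among them. Of the 33 at or above that level in both untreated libraries, 2 rose. HAS3, a hyaluronan synthase, had 49.7 and 52.8 CPM in irradiated and 6.75 and 5.87 CPM in untreated cells (3.02 ± 0.52, edgeR adjusted p = 0.0222). MMP1 had 1.62 and 3.47 CPM in irradiated and 0.6 and 0.419 CPM in untreated cells (2.28 ± 0.85, edgeR adjusted p = 0.113), and TIMP1 had 650 and 861 CPM against 504 and 1004 CPM (0.00 ± 0.37, edgeR adjusted p = 0.996).

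TGF-beta receptors rose: TGFBR2 had 667 and 737 CPM in irradiated and 214 and 390 CPM in untreated cells (1.22 ± 0.30, edgeR adjusted p = 0.0446), and TGFBR1 had 46.6 and 47.5 CPM against 32.3 and 33.6 CPM (0.51 ± 0.12, edgeR adjusted p = 0.0408). ITGB6, a subunit of an integrin that activates latent TGF-beta, had 108 and 165 CPM in irradiated and 40.9 and 42.8 CPM in untreated cells (1.70 ± 0.28, edgeR adjusted p = 0.0185). Of this list of 32 contractile, TGF-beta and mesenchymal genes 5 rose and 1 fell, with a median log2 fold change of 0.18. The one that fell was AXL, a receptor tyrosine kinase, with 26.6 and 36.7 CPM in irradiated and 79.9 and 100 CPM in untreated cells (-1.51 ± 0.36, edgeR adjusted p = 0.0428). VIM, vimentin, had 275 and 497 CPM in irradiated and 416 and 1098 CPM in untreated cells, the second library being the higher in both groups (-0.97 ± 0.63, edgeR adjusted p = 0.334). The collagen, protease and contractile calls were all lost without irradiated replicate 1.

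Enzymes of serine, glycine and one-carbon metabolism had the lowest list median, -0.98, and both irradiated libraries lay below both untreated ones for 22 of 25 genes (31.6% of all tested genes did). At the threshold 5 fell and 0 rose. SHMT2, the mitochondrial serine hydroxymethyltransferase, fell to 136 and 162 CPM in irradiated cells, against 493 and 396 CPM in untreated cells (-1.58 ± 0.26, edgeR adjusted p = 0.019). MTHFD2, the next enzyme of the mitochondrial folate path, fell to 105 and 117 CPM in irradiated cells, against 344 and 309 CPM in untreated cells (-1.55 ± 0.33, edgeR adjusted p = 0.0317). PYCR1, of proline synthesis, fell to 21.7 and 26.5 CPM in irradiated cells, against 91.5 and 63.5 CPM in untreated cells (-1.68 ± 0.28, edgeR adjusted p = 0.0187). MTHFD1L and GOT1 fell too. GOT1, an aspartate aminotransferase, and PYCR1 are in the list but are not themselves enzymes of serine, glycine or one-carbon metabolism. PHGDH, the first enzyme of serine synthesis, had 15.0 and 17.5 CPM in irradiated and 211 and 130 CPM in untreated cells, a difference that missed the threshold (-3.39 ± 0.94, edgeR adjusted p = 0.0614).

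Many of these enzymes are induced by the transcription factor ATF4. The ATF4 transcript fell to 301 and 334 CPM in irradiated cells, against 664 and 707 CPM in untreated cells (-1.11 ± 0.21, edgeR adjusted p = 0.024). Whether ATF4 had a part in the lower enzyme transcripts was not tested. Of 23 integrated stress and amino acid transport genes, 4 fell and 1 rose, with a median log2 fold change of -0.73. In 16 of them both irradiated libraries lay below both untreated ones (31.6% of all tested genes did). TRIB3, a pseudokinase induced through ATF4, fell to 95.4 and 97.9 CPM in irradiated cells, against 720 and 331 CPM in untreated cells (-2.44 ± 0.60, edgeR adjusted p = 0.0465). The glutamine transporter SLC1A5 fell to 253 and 245 CPM in irradiated cells, against 680 and 505 CPM in untreated cells (-1.25 ± 0.32, edgeR adjusted p = 0.0486), and DDIT4, an inhibitor of mTORC1, fell to 765 and 740 CPM, against 1275 and 1224 CPM (-0.73 ± 0.16, edgeR adjusted p = 0.0327). ASNS, asparagine synthetase, had 44.4 and 39.5 CPM in irradiated and 389 and 178 CPM in untreated cells (-2.76 ± 0.91, edgeR adjusted p = 0.0899). Its untreated libraries differed from each other, as did those of TRIB3, while the irradiated pairs were close. ATF5 moved the other way, with 62.0 and 60.5 CPM in irradiated and 30.1 and 37.8 CPM in untreated cells (0.85 ± 0.15, edgeR adjusted p = 0.0197). Without irradiated replicate 1, irradiated replicate 2 or untreated replicate 1, 0 of the 9 genes of both lists that fell kept the call; without untreated replicate 2, 1 did.

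ATF4 and C/EBP factors bind the C/EBP-ATF response element (CARE), searched as TGATGNAAN on both strands. It was found in 3.61% of the 35116 windows. Windows were at hand for only 3 of the 5 serine-list genes that fell, too few for a share, of which GOT1 and MTHFD1L held a match, and for all 4 of the stress-list genes that fell, of which SLC1A5 held one. These are shown with ASNS, whose element is well known, as stretches upstream of the start on the strand of the gene with the match in capitals. They lie at chr10:99430795-99430843 (GOT1), chr6:150866337-150866385 (MTHFD1L), chr19:46784883-46784931 (SLC1A5) and chr7:97872448-97872496 (ASNS) on GRCh38.p14.
GOT1: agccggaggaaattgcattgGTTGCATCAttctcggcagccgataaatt
MTHFD1L: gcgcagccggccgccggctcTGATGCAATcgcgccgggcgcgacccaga
SLC1A5: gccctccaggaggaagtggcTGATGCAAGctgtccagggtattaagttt
ASNS: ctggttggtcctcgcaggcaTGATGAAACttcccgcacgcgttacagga
The GOT1 match is on the opposite strand. A CARE match can share bases with an ISRE core. As for the ISRE, a match is a description of these letters and not evidence of binding.

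Of 31 glycolysis and hypoxia genes 5 rose and 0 fell. PKM, pyruvate kinase, had 3090 and 3203 CPM in irradiated and 1387 and 1765 CPM in untreated cells (1.00 ± 0.19, edgeR adjusted p = 0.0239). PGAM1, phosphoglycerate mutase, had 71.1 and 66.0 CPM in irradiated and 28.3 and 41.4 CPM in untreated cells (0.98 ± 0.20, edgeR adjusted p = 0.0282). The hypoxia-inducible genes EGLN3 and ADM rose, ADM to 43.8 and 37.8 CPM in irradiated cells, against 4.65 and 9.64 CPM in untreated cells (2.53 ± 0.43, edgeR adjusted p = 0.0202). LDHA had 2932 and 2839 CPM in irradiated and 1027 and 1740 CPM in untreated cells and missed the threshold (1.06 ± 0.30, edgeR adjusted p = 0.0604), as did CA9, with 33.3 and 45.5 CPM against 1.72 and 9.43 CPM (2.85 ± 0.93, edgeR adjusted p = 0.0889). ENO1 had 2375 and 2598 CPM in irradiated and 2102 and 2599 CPM in untreated cells (0.08 ± 0.16, edgeR adjusted p = 0.759).

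Nuclear genes of the TCA cycle and respiratory chain gave 8 that fell and 0 that rose among 42, with a median log2 fold change of -0.29. In 32 of the 42 both irradiated libraries lay below both untreated ones (31.6% of all tested genes did). CS, citrate synthase, fell to 197 and 212 CPM in irradiated cells, against 298 and 321 CPM in untreated cells (-0.60 ± 0.11, edgeR adjusted p = 0.0239). FH, fumarase, fell to 142 and 152 CPM in irradiated cells, against 236 and 252 CPM in untreated cells (-0.73 ± 0.11, edgeR adjusted p = 0.0167), and CYC1, cytochrome c1 of complex III, fell to 200 and 201 CPM, against 337 and 334 CPM (-0.74 ± 0.11, edgeR adjusted p = 0.0167). IDH3B, PDHA1, SDHB, SUCLG1 and UQCRC1 were the others. ATP5B, the catalytic subunit of ATP synthase, had 954 and 948 CPM in irradiated and 1067 and 1092 CPM in untreated cells (-0.18 ± 0.12, edgeR adjusted p = 0.334). The tables hold 0 mitochondrially encoded genes. Of these 8 calls, 4 were kept without untreated replicate 1 and 0 in each of the other fits that leave out a library; of the 5 glycolysis calls, 2 were kept without untreated replicate 2 and 0 in the others.

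Lipid genes gave few calls. Of 24 cholesterol genes 2 rose (SC5D and HSD17B7) and 0 fell, a share near that of all tested genes (7.16% rose). In 19 of them both irradiated libraries lay above both untreated ones (32% of all tested genes did), with a median log2 fold change of 0.60. SC5D, the sterol C5 desaturase, had 66.0 and 58.8 CPM in irradiated and 26.6 and 35.6 CPM in untreated cells (1.01 ± 0.24, edgeR adjusted p = 0.038). Among 25 fatty acid and triglyceride genes 3 rose and 2 fell, shares not far from those of all tested genes (7.16% rose and 5.78% fell). ANGPTL4, an inhibitor of lipoprotein lipase, had 275 and 307 CPM in irradiated and 26 and 83.5 CPM in untreated cells (2.42 ± 0.56, edgeR adjusted p = 0.0416). PPARG, a nuclear receptor of lipid storage, fell to 5.13 and 5.09 CPM in irradiated cells, against 16.2 and 17.3 CPM in untreated cells (-1.71 ± 0.24, edgeR adjusted p = 0.016). FASN had 1086 and 892 CPM in irradiated and 687 and 743 CPM in untreated cells (0.47 ± 0.20, edgeR adjusted p = 0.157).

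Of 47 cytosolic ribosomal protein genes 24 fell and 0 rose, with a median log2 fold change of -0.62. In 45 of them both irradiated libraries lay below both untreated ones (31.6% of all tested genes did). RPL5 had 720 and 859 CPM in irradiated and 1531 and 1830 CPM in untreated cells (-1.09 ± 0.15, edgeR adjusted p = 0.016). RPL3 had 1576 and 1832 CPM in irradiated and 3189 and 3936 CPM in untreated cells (-1.06 ± 0.16, edgeR adjusted p = 0.0167). Ribosomal protein genes have many processed pseudogenes, to which counting could assign reads. Of 29 ribosome biogenesis and MYC-linked genes 10 fell and 0 rose. FBL, the rRNA methyltransferase fibrillarin, fell to 120 and 131 CPM in irradiated cells, against 251 and 299 CPM in untreated cells (-1.13 ± 0.13, edgeR adjusted p = 0.0114). NPM1, nucleophosmin, fell to 899 and 985 CPM in irradiated cells, against 1707 and 2203 CPM in untreated cells (-1.05 ± 0.17, edgeR adjusted p = 0.0171). MYC itself had 526 and 566 CPM in irradiated and 715 and 654 CPM in untreated cells (-0.33 ± 0.15, edgeR adjusted p = 0.175). Of the 24 ribosomal protein calls, 0, 1, 23 and 2 were kept without irradiated replicate 1, irradiated replicate 2, untreated replicate 1 and untreated replicate 2.

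Of 20 nucleotide synthesis genes 5 fell (ADSL, ATIC, DHODH, GMPS, IMPDH2) and 0 rose. IMPDH2, the rate-limiting enzyme of guanine nucleotide synthesis, fell to 231 and 251 CPM in irradiated cells, against 531 and 634 CPM in untreated cells (-1.27 ± 0.15, edgeR adjusted p = 0.0121). GMPS, the enzyme that follows it, fell to 71.8 and 82.1 CPM in irradiated cells, against 144 and 134 CPM in untreated cells (-0.85 ± 0.15, edgeR adjusted p = 0.0222). PAICS had 251 and 294 CPM in irradiated and 349 and 371 CPM in untreated cells (-0.40 ± 0.16, edgeR adjusted p = 0.129). Without irradiated replicate 1, 0 of these 5 calls were kept, and at most 2 were kept in the other 3 fits.

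Of 32 NRF2, glutathione and metallothionein genes 5 fell and 0 rose. MT1X, a metallothionein, fell to 25.6 and 41.9 CPM in irradiated cells, against 151 and 281 CPM in untreated cells (-2.67 ± 0.37, edgeR adjusted p = 0.0163), with the reservation that metallothionein genes are near-identical copies. NQO1, the quinone reductase, fell to 58.1 and 69.6 CPM in irradiated cells, against 131 and 203 CPM in untreated cells (-1.39 ± 0.25, edgeR adjusted p = 0.0223). TKT, transketolase, fell to 524 and 584 CPM in irradiated cells, against 1131 and 1661 CPM in untreated cells (-1.33 ± 0.20, edgeR adjusted p = 0.0167). GPX4 and MT1E fell too. Of these 5 calls, 0, 1, 5 and 3 were kept without irradiated replicate 1, irradiated replicate 2, untreated replicate 1 and untreated replicate 2. FTH1, the ferritin heavy chain, had 3880 and 4450 CPM in irradiated and 4261 and 5752 CPM in untreated cells, which overlap (-0.27 ± 0.18, edgeR adjusted p = 0.348).

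Called lysosomal genes were higher: of 30 tested, 6 rose and 0 fell. LAMP1, a membrane protein of lysosomes, had 313 and 338 CPM in irradiated and 141 and 182 CPM in untreated cells (1.01 ± 0.15, edgeR adjusted p = 0.0167). GRN, progranulin, had 776 and 737 CPM in irradiated and 264 and 402 CPM in untreated cells (1.18 ± 0.21, edgeR adjusted p = 0.0202). ATP6V0D1 and ATP6V1H, subunits of the proton pump, LAMP2 and MAN2B1 also rose. CTSD, cathepsin D, had 1807 and 1485 CPM in irradiated and 949 and 912 CPM in untreated cells and missed the threshold (0.82 ± 0.22, edgeR adjusted p = 0.0513). Endoplasmic reticulum chaperones gave 2 calls among 21 (12.9% of all tested genes were called). CALR, calreticulin, had 869 and 855 CPM in irradiated and 375 and 553 CPM in untreated cells (0.89 ± 0.20, edgeR adjusted p = 0.0347), and XBP1, a factor of the unfolded protein response, fell to 87.0 and 89.9 CPM, against 218 and 164 CPM (-1.11 ± 0.21, edgeR adjusted p = 0.0238). HSPA5, its main chaperone, had 1034 and 1071 CPM in irradiated and 1037 and 996 CPM in untreated cells (0.05 ± 0.12, edgeR adjusted p = 0.803). Without irradiated replicate 1 and without irradiated replicate 2, 0 of the lysosomal calls were kept, and 2 and 3 were kept without untreated replicates 1 and 2.

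Of 29 growth factor and AP-1 genes 4 rose and 2 fell. JUN had 78.2 and 60.7 CPM in irradiated and 25.6 and 17.4 CPM in untreated cells (1.68 ± 0.22, edgeR adjusted p = 0.014), and PIK3IP1, an inhibitor of PI3-kinase, had 15.8 and 19.3 CPM against 3.07 and 3.04 CPM (2.52 ± 0.26, edgeR adjusted p = 0.0111). NRG1, a ligand of ERBB receptors, had 7.44 and 10.7 CPM in irradiated and 2.7 and 2.72 CPM in untreated cells (1.74 ± 0.29, edgeR adjusted p = 0.019). EGR1, an immediate early gene, fell to 39.7 and 49.6 CPM in irradiated cells, against 249 and 150 CPM in untreated cells (-2.16 ± 0.29, edgeR adjusted p = 0.0155), and JUNB fell to 128 and 134 CPM, against 308 and 215 CPM (-1.0 ± 0.21, edgeR adjusted p = 0.0298). EGFR had 841 and 834 CPM in irradiated and 866 and 565 CPM in untreated cells (0.23 ± 0.20, edgeR adjusted p = 0.479).

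Of 16 glucocorticoid and circadian response genes 5 fell and 0 rose, in cells whose medium contained hydrocortisone in both groups. TSC22D3, the glucocorticoid-induced leucine zipper, fell to 93.9 and 93.4 CPM in irradiated cells, against 243 and 257 CPM in untreated cells (-1.42 ± 0.28, edgeR adjusted p = 0.0259). FKBP5, a chaperone of the receptor, fell to 685 and 574 CPM in irradiated cells, against 1284 and 972 CPM in untreated cells (-0.84 ± 0.21, edgeR adjusted p = 0.0424). KLF15 fell to 0.211 and 0.31 CPM in irradiated cells, against 1.2 and 4.4 CPM in untreated cells (-3.35 ± 0.80, edgeR adjusted p = 0.0399), and DBP and KLF9 fell too. PER1, a clock gene, had 135 and 129 CPM in irradiated and 147 and 127 CPM in untreated cells (-0.06 ± 0.19, edgeR adjusted p = 0.86). None of the 5 calls was kept without irradiated replicate 1, irradiated replicate 2 or untreated replicate 2 (0 each), and 1 was kept without untreated replicate 1. Of 15 retinoid, AHR and xenobiotic genes 0 rose and 0 fell in the edgeR test.

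Genes outside every list were taken by size of change, at a mean of at least 1 CPM and with no overlap between the groups. Among the 12 with the largest increases were HEPHL1, a copper-dependent ferroxidase, with 268 and 574 counts in irradiated and 0 and 1 in untreated cells (ratio 635, 95% counting interval 114 to 25094, exact; edgeR adjusted p = 0.0124). LGALS9, galectin 9, had 76.5 and 20.0 CPM in irradiated and 0.975 and 0.524 CPM in untreated cells (5.94 ± 1.00, edgeR adjusted p = 0.0215). GJA5, a connexin, had 45.0 and 13.9 CPM in irradiated and 0.675 and 0.105 CPM in untreated cells (6.08 ± 0.96, edgeR adjusted p = 0.0191), and SLC6A14, an amino acid transporter, had 84.0 and 28.2 CPM against 1.2 and 0.314 CPM (6.10 ± 1.42, edgeR adjusted p = 0.0416). ROBO2, PADI4, ATP6V0A4, TMEM140, PARM1, RASGRP3 and FLNC were also in this set.

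The 12 with the largest decreases included LAPTM5, a lysosomal membrane protein best known from blood cells, which fell to 6.25 and 10.9 CPM in irradiated cells, against 104 and 107 CPM in untreated cells (-3.62 ± 0.35, edgeR adjusted p = 0.0111). GFPT2, an enzyme of the hexosamine path, fell to 6.11 and 18 CPM in irradiated cells, against 88.6 and 97.8 CPM in untreated cells (-2.94 ± 0.53, edgeR adjusted p = 0.0239). KIF21B, a kinesin, fell to 4.07 and 5.02 CPM in irradiated cells, against 82.1 and 30.6 CPM in untreated cells (-3.63 ± 0.75, edgeR adjusted p = 0.0311), and SLC43A1, an amino acid transporter, fell to 0.281 and 0.434 CPM, against 9.3 and 5.34 CPM (-4.31 ± 0.75, edgeR adjusted p = 0.0202). CSF3R, the receptor of a granulocyte growth factor, fell to 0.351 and 0.682 CPM in irradiated cells, against 5.85 and 5.66 CPM in untreated cells (-3.44 ± 0.69, edgeR adjusted p = 0.031). CBSL, a copy of the gene of cystathionine beta-synthase whose reads cannot be told from those of CBS, fell to 3.09 and 0.93 CPM, against 49.1 and 23.3 CPM (-4.18 ± 0.93, edgeR adjusted p = 0.0377). The others were PELI2, MROH7, PLAC1, SAMD11, BEST2 and BMP6. HEPHL1, ATP6V0A4 and LAPTM5 were called in 2, 3 and 3 of the 4 fits that leave out a library, and the other genes named from both sets in 0 or 1.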

How the data were processed

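The series holds 32 poly(A) RNA libraries; 4 were compared and 8, those of the 4 WT MCF10A groups of the first experiment, were fitted together. The first table holds estimated counts as deposited by the authors, not normalised. FPKM, scaled by length and library size, fill another table the authors deposited. The submitters' processing notes name STAR, Cuffnorm and DESeq2 without roles, and the build hg19, whose coordinates are printed unless GRCh38.p14 is named.

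Estimated counts were rounded, filtered with filterByExpr by group, scaled by TMM factors and tested with edgeR 4.0.16 (quasi-likelihood with robust dispersion, two-sided, group as the only term). Benjamini-Hochberg adjustment ran over the 15140 genes tested. The common biological coefficient of variation was 0.231, with 4 residual degrees of freedom. Knockout libraries were left out because replicates of some spread far less (chi-square per gene as low as 2.95). CPM use TMM-scaled totals, and log2 CPM a prior count of 2. A standard error is the fold change divided by the root of F. Folds against 0 counts use a floor of 3 counts over the group; with 1 to 3 counts an exact counting interval is given. Neither covers more than counting error, since reads are not independent molecules.

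The comparison and the 45 gene lists were chosen with earlier results of these data known. Named genes are, per list, up to 4 called members in each direction with the largest change and up to 3 uncalled members with the highest CPM; outside the lists, in each direction, the 12 largest changes among called genes; and anchor genes such as CDKN1A. Some genes are not reported here, and called members given by name alone go beyond this rule. The alternatives were RLE factors, no filter, DESeq2 1.42.0, other sets of libraries, a replicate block, limma 3.58.1 on log2(FPKM + 1) or log2(FPKM + 0.1), and each library left out. The fit was tested on simulated data.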

Additional observations from a re-analysis of the deposited data

How the results depend on the processing

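The counts of genes that rose and fell were 1084 and 875. They were 1108 and 857 with RLE factors, and 1464 and 1109 with DESeq2. Without a filter on low counts they were 2283 and 1512, with all 14 libraries of the experiment 2215 and 2021, with only the 4 libraries compared 686 and 404, with limma on log2(FPKM + 1) 598 and 608, on log2(FPKM + 0.1) 641 and 588, and on log2(FPKM + 1) without a filter 112 and 78. Leaving out 1 library at a time gave 17 to 328 genes that rose and 0 to 213 that fell. The samples share only replicate numbers, which the labels do not call a pairing. Deviations of the 2 libraries correlated between irradiated and untreated groups (r = 0.307 across genes, and 0.247 to 0.442 over the 4 WT groups), and with the number as a replicate block 1993 genes rose and 1668 fell. Under this block the calls of higher expression numbered 11 among cornified envelope genes (2 without it), 15 among kallikreins (4), 15 among junction genes (2) and 18 among replication-dependent histone genes (12), 13 serine-list genes fell (5 without it), and FN1 had an edgeR adjusted p of 0.00158 (0.688 without it). In each alternative at least 1074 of the 1084 genes that rose and at least 873 of the 875 that fell kept their direction, where tested. Of the 160 called genes given by name under the naming rule, 0 reversed in any of the 13 alternatives, where tested. All alternatives use libraries on which the genes were called, so a kept direction is not independent support. A gene that missed the threshold is not shown to be unchanged, and genes with 0 to a few untreated counts are limited by depth as well as by the 2 libraries a group.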
